A study of Mus musculus with 6 samples.

Results

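The miR-322 cluster, which also carries miR-503, miR-351, miR-542, miR-450a and miR-450b, is a group of miRNA hairpins that lie close together on the mouse X chromosome. Its 9 members were chosen by name, which the table writes with the mouse prefix: mmu-miR-322-5p, mmu-miR-322-3p, mmu-miR-503-5p, mmu-miR-351-5p, mmu-miR-542-3p, mmu-miR-542-5p, mmu-miR-450a-5p, mmu-miR-450b-5p and mmu-miR-450b-3p. All 9 were found among the 2009 names of the deposited table, of which 1978 are mouse miRNAs and 31 are predicted ones. The choice used measured values, since the cluster was proposed because the I/R and sham levels of miR-450b-5p did not overlap. The comparison between the groups is therefore given for the members as a description, with no p-value for a member; counts of names that passed a test over the whole table stand beside it as background.

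The study measured small RNA in hearts of male mice, 3 sham and 3 after ischemia and reperfusion (I/R), to compare noncoding RNA and mRNA between these groups. All 6 hearts were isolated and perfused through the aorta on a Langendorff apparatus. Sham hearts went on beating, while I/R hearts had contraction stopped with a cardioplegic solution for 30 min and were reperfused for 1 h. The labels give no strain, age or genotype and call the hearts biological replicates 1 to 3 of each group, and the sham hearts too were outside the body and perfused.

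A miRNA is cut from a hairpin in a longer primary transcript. The strand from the left side of the hairpin is named 5p and the one from the right side 3p, and usually 1 of them is loaded into Argonaute, where it pairs with target mRNAs mainly through its seed, bases 2 to 8 from its 5′ end. Hairpins carried by 1 primary transcript are called a polycistronic cluster. In muscle precursor cells miR-322-5p and miR-503-5p are known to repress cell cycle genes such as Cdc25a and to favour exit from the cell cycle. Both belong to the extended family of miR-15 and miR-16, which is known for restraining the division of heart muscle cells after birth, and miR-351-5p has the seed of the miR-125 family.

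The mature sequences of the members are shown with the seed in capitals, because the seed tells which members can share targets with each other and with other heart miRNAs. They are from RefSeq (GRCm38.p6), which held all 9.
miR-322-5p: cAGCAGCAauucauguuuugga
miR-503-5p: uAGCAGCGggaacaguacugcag
miR-351-5p: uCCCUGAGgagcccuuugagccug
miR-322-3p: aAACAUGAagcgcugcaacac
miR-542-3p: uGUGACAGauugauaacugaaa
miR-542-5p: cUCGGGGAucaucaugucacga
miR-450a-5p: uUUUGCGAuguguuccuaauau
miR-450b-5p: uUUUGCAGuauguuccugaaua
miR-450b-3p: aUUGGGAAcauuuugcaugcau

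Each of the 9 members has its own seed. The seeds of miR-322-5p and miR-503-5p, AGCAGCA and AGCAGCG, differ by 1 base at the end of the seed. Those of miR-450a-5p and miR-450b-5p, UUUGCGA and UUUGCAG, differ at 2 bases, although the mature sequences share their first 6 bases and differ at 7 of 22 positions. Of the mature sequences of other names in the table, 1 lay within 3 edits of a member. This was miR-450a-1-3p, which shares the first 18 bases and the seed with miR-450b-3p and differs from it at 2 positions, so reads trimmed at the 3′ end could have been assigned to either name and the level of miR-450b-3p is uncertain.

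The 7 hairpins lie on the minus strand of chromosome X between 53047997 and 53054349 (GRCm38), within 6353 bases. In the order of transcription they are Mir322 (53054255 to 53054349), Mir503 (53053984 to 53054054), Mir351 (53053255 to 53053353), Mir542 (53049403 to 53049487), Mir450-2 (53048299 to 53048367), Mir450-1 (53048154 to 53048244) and Mir450b (53047997 to 53048078). Mir322 and Mir503 are 200 bases apart, and the 3 hairpins of miR-450a and miR-450b are separated by 54 and 75 bases. The longest gap, of 3767 bases between Mir351 and Mir542, holds the lincRNA Gm28730 (53051194 to 53053159). No hairpin overlapped another gene in the GENCODE annotation of chromosome X. The noncoding transcript C430049B03Rik (53055046 to 53057190) lies on the same strand, 696 bases upstream of Mir322. The mature miR-450a-5p is the same in Mir450-1 and Mir450-2, so its reads cannot be given to 1 hairpin.

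Depth ranged from 7874103 to 9197869 reads per library, so that 1 read was worth 0.109 to 0.127 reads per 1000000 (RPM). A filter blind to the groups asked for a mean of 1 RPM or more and for reads in 3 or more libraries; 409 names met it and were kept for tests across names. All 4 heart muscle miRNAs used to check the tissue (miR-1a-3p, miR-133a-3p, miR-208a-3p and miR-499-5p) were present, and their summed level ran from 385458 to 389856 RPM among sham and from 357828 to 383230 RPM among I/R hearts, without overlap. Most of this sum was miR-1a-3p, with a mean of 372677 RPM over all libraries. miR-133a-3p averaged 1075 RPM, miR-208a-3p 163 RPM and miR-499-5p 5640 RPM. Of the markers of other cell types, endothelium (1 name), smooth muscle (2), fibroblasts (2), red blood cells (2) and leukocytes (3) had summed levels that overlapped between the groups, with 173.7 to 229 RPM (sham) and 214 to 266 RPM (I/R) for fibroblasts. For the liver miRNA miR-122-5p the ranges were 3.05 to 3.58 RPM (sham) and 3.67 to 4.32 RPM (I/R). The gap between them was smaller than the worth of 1 read. On the higher side, groups lay apart for 11.2% of the 409 names kept. The 2 brain names summed to 81.1 to 131.9 RPM (sham) and 90.8 to 145.8 RPM (I/R), all of it miR-9-5p, since miR-124-3p was at 0 reads in all libraries. Among sham hearts, 7 of the 9 members had their highest level in replicate 2, as did 6 of the 8 members kept and 185 of the 409 names kept (45.2%). In bulk tissue, fewer cells of a type and less RNA per cell cannot be told apart.

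The cluster was a minor part of the heart's miRNAs. Its members together held 0.0551% of the reads. Their summed level was 496, 587 and 487 RPM in sham replicates 1 to 3 and 574, 573 and 591 RPM in I/R replicates 1 to 3. The I/R hearts were close to each other, and sham replicate 2 was as high as they were while the other sham hearts lay lower. The sum averaged 523 ± 55.5 RPM over sham and 579 ± 10.04 RPM over I/R hearts (SD, n = 3 each), a difference of 0.15 on the log2(RPM + 1) scale. Without sham replicate 2 the difference was 0.24, and when libraries were scaled by median ratios, by TMM (trimmed mean of log ratios) or by totals without the 10 most abundant names, it was 0.05, 0.07 and 0.08.

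The members differed widely in level although their hairpins lie side by side, and 2 names made up most of the sum. Over the 6 libraries miR-322-3p was at 264 ± 22.8 RPM (SD) and held 47.9% of the sum, and miR-450a-5p was at 160.6 ± 12.03 RPM and held 29.1%. They were followed by miR-351-5p at 43.7 ± 5.51 RPM, miR-542-3p at 42.0 ± 4.93 RPM, miR-322-5p at 17.9 ± 4.396 RPM, miR-450b-5p at 11.9 ± 2.63 RPM, miR-503-5p at 7.11 ± 0.74 RPM, miR-450b-3p at 3.73 ± 1.14 RPM and miR-542-5p at 0.242 ± 0.169 RPM. Among all names of the table, the mean of miR-322-3p ranked 76 and that of miR-450a-5p 98, while miR-322-5p ranked 191 and miR-503-5p 256. Levels of different miRNAs are compared as reads; the mature members are 21 to 24 nt long, and how well each sequence is captured in a library was not measured.

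This order held in every library with 1 exception. Of the 36 pairs of members, 35 had the same order in all 6 libraries, each with p = 0.03125 in a two-sided exact sign-flip permutation test of the difference within libraries, the smallest p that 6 libraries allow (Benjamini-Hochberg adjusted p = 0.0321 over the 36 pairs). The pair without a stable order was miR-351-5p and miR-542-3p, neighbours in level, which differed by 0.05 ± 0.10 on the log2 scale (SD, n = 6), from -0.11 to 0.15, with exact permutation p = 0.25. The closest pair that kept its order was miR-322-5p above miR-450b-5p, by 0.55 ± 0.35, with 0.11 in the library where they were nearest. Those values count the 2 hairpins of miR-450a-5p together.

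**Figure D1:**
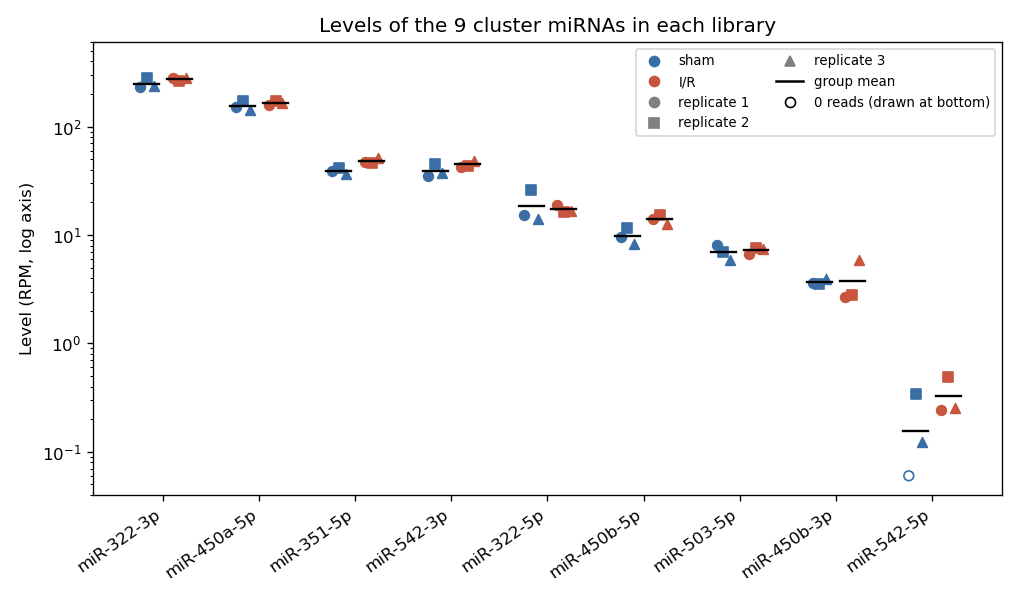
Level in RPM on a log axis of the 9 members, ordered by their mean, in sham (blue) and I/R (red) hearts; each marker is 1 library, its shape the replicate number, and lines are group means. The members run from 264 RPM for miR-322-3p to 0.242 RPM for miR-542-5p, and the groups lie apart for miR-351-5p and miR-450b-5p among the 8 members kept.

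The most abundant product of the first hairpin was the 3p strand. The hairpin of miR-322 is shown with its arms in capitals, miR-322-5p first and miR-322-3p second (RefSeq, GRCm38.p6, minus strand of chromosome X, 53054255 to 53054349).
Mir322: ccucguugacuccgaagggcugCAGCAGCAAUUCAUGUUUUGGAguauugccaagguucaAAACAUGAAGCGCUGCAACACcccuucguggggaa

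miR-322-3p was read 14.7 times as often as miR-322-5p, the strand with the miR-15/16 seed. The 5p strand held 6.12%, 8.56% and 5.54% of the reads of both arms in sham replicates 1 to 3 and 6.27%, 5.80% and 5.58% in I/R replicates 1 to 3. Sham replicate 2 was highest and the other 5 libraries lay close together. Over all libraries the share was 6.39% (95% Wilson interval 5.995% to 6.80%, which covers counting error only). Among the 94 hairpins of the table with both arms kept, 56 had more reads on the 5p and 38 on the 3p arm, and miR-322 ranked 20 counted from the hairpin with the largest excess of 3p. Hairpins with an arm below the filter, such as miR-542, are outside this ranking, so strongly one-sided hairpins can be missing from it.

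The other hairpins used their arms differently. miR-542 gave almost only its 3p strand, with a 5p share of 0.565% (95% Wilson interval 0.324% to 0.985%) from 12 reads of miR-542-5p in all libraries together. miR-351 and miR-450a gave almost only the 5p strand: miR-351-5p held 99.8% (interval 99.5% to 99.9%) and miR-450a-5p 99.8% (99.7% to 99.9%). Their other strands were near the limit of counting, with 4 reads of miR-351-3p, 11 of miR-450a-1-3p and 4 of miR-450a-2-3p over all libraries. miR-503 was balanced, with a 5p share of 55.0% (interval 51.1% to 58.8%) and 45.7% to 63.9% in single libraries. Its 3p strand, which is no member, averaged 5.59 ± 1.55 (sham) and 6.15 ± 0.67 RPM (I/R), beside 6.99 ± 1.06 and 7.22 ± 0.45 RPM for miR-503-5p (SD, n = 3 each). miR-450b lay between, with a 5p share of 76.1% (interval 73.0% to 79.0%). This interval and that of miR-450a-5p do not cover the doubt, given above, about which reads belong to miR-450b-3p or miR-450a-1-3p. Over all libraries 187 reads were assigned to miR-450b-3p, beside 8090 to miR-450a-5p.

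The near copies miR-450a and miR-450b thus differed in level and, as the reads were assigned, in arm use. The arm shares of miR-450b and of miR-450a are uncertain, since miR-450b-3p and miR-450a-1-3p share their first 18 bases. The 2 hairpins of miR-450a gave 160.9 ± 12.1 RPM over both arms and that of miR-450b 15.6 ± 2.58 RPM (SD, n = 6). For the 5p strands the ratio was 13.5. The share of miR-450b reads on the 5p arm was 72.7%, 76.7% and 67.7% in sham and 83.9%, 84.4% and 68.5% in I/R replicates 1 to 3, so that I/R replicate 3 lay among the sham hearts.

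**Figure D2:**
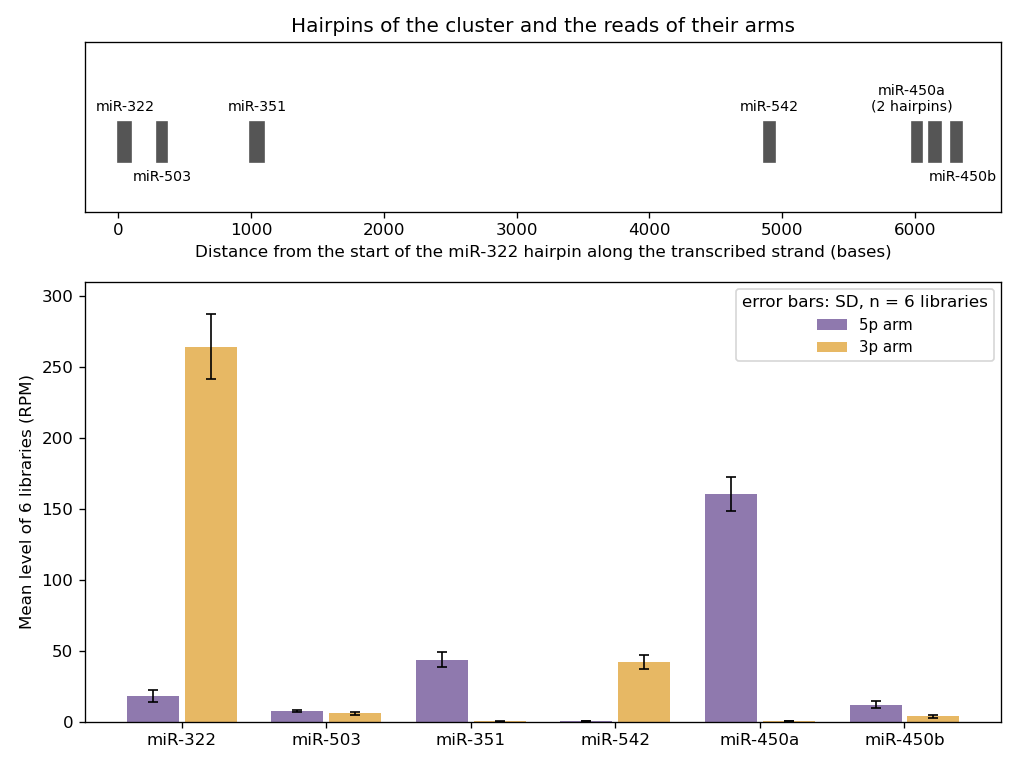
Top, the 7 hairpins drawn to scale by distance in bases from the start of the miR-322 hairpin along the transcribed strand; bottom, the mean level in RPM of the 5p and 3p arms of each hairpin over 6 libraries, with SD as error bars. miR-322 and miR-542 have their reads on the 3p arm, miR-351 and miR-450a on the 5p arm, and miR-503 is balanced; both hairpins of miR-450a are counted together.

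The seeds place 2 members among more abundant heart miRNAs. Among the names with a RefSeq sequence, the 7-base seed of miR-322-5p is found in 10, of which 6 had a mean of at least 1 RPM. The most abundant of these was miR-16-5p, and the next was miR-195a-5p, encoded beside miR-497a. Their sequences show how the identity ends after the seed.
miR-322-5p: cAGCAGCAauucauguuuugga
miR-16-5p: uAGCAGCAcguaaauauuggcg
miR-195a-5p: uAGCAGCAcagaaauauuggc

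Within this seed family miR-322-5p was a small part. The names with its seed had a summed mean of 303 RPM, of which miR-16-5p held 61.8%, miR-195a-5p 26.8%, miR-322-5p 5.86 ± 0.91% (SD, n = 6), miR-497a-5p 3.07%, miR-15b-5p 1.298% and miR-15a-5p 1.06%. The share of miR-322-5p was 5.42%, 7.49% and 5.19% in sham and 6.38%, 5.28% and 5.39% in I/R replicates 1 to 3. It was highest in sham replicate 2 and the groups overlapped. If the level of names with more than 1 hairpin, here miR-16-5p, is divided by their number, the mean share becomes 8.47%. When the seed is cut to bases 2 to 7, miR-503-5p joins the family, and no other name with a RefSeq sequence does.

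The seed mates had levels of their own in the 2 groups. miR-16-5p averaged 188 ± 20.5 (sham) and 186 ± 6.20 RPM (I/R), and miR-195a-5p 77.3 ± 12.2 and 85.4 ± 3.84 RPM (SD, n = 3 each). miR-497a-5p averaged 9.03 ± 2.31 and 9.69 ± 0.71 RPM, miR-15b-5p 4.18 ± 2.55 and 3.82 ± 0.87 RPM, and miR-15a-5p 2.55 ± 0.33 and 3.83 ± 0.60 RPM. Of these 5 the groups lay apart for miR-15a-5p, higher in I/R, as they did for 11.2% of the 409 names kept. Like miR-322-5p, 4 of them (miR-16-5p, miR-195a-5p, miR-497a-5p and miR-15b-5p) had their highest sham level in replicate 2.

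miR-351-5p was a still smaller part of the names with its seed. The seed is in 5 names with a RefSeq sequence, of which miR-125a-5p and miR-125b-5p, abundant miRNAs of many tissues, had at least 1 RPM besides it.
miR-351-5p: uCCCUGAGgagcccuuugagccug
miR-125a-5p: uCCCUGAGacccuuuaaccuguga
miR-125b-5p: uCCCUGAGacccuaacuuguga

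Of a summed mean of 5423 RPM, miR-125b-5p held 71.4%, miR-125a-5p 27.8% and miR-351-5p 0.810 ± 0.088% (SD, n = 6). The share of miR-351-5p was 0.778%, 0.955% and 0.682% in sham and 0.803%, 0.822% and 0.818% in I/R replicates 1 to 3, so the groups overlapped. miR-125b-5p averaged 3542 ± 255 (sham) and 4172 ± 29.3 RPM (I/R; log2 difference 0.24, SE 0.08, n = 3 each). Its groups lay apart, higher in I/R, as did those of miR-351-5p and of 11.2% of the 409 names kept. miR-125a-5p averaged 1342 ± 323 and 1702 ± 309 RPM, with groups that overlapped. Among the names with a RefSeq sequence, the remaining 7 members share their 7-base seed with none outside the cluster that reached 1 RPM.

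**Figure D3:**
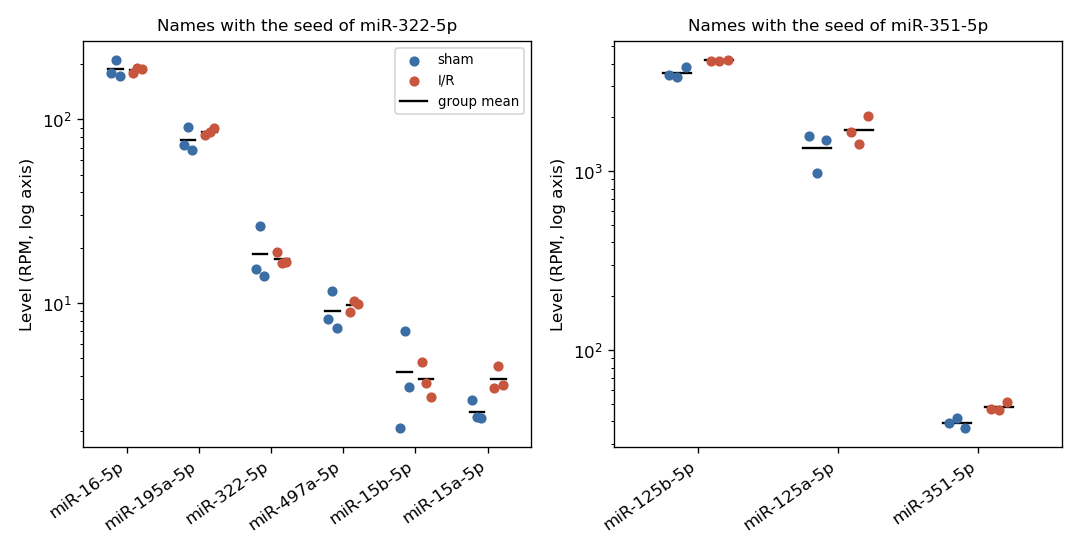
Levels in RPM on log axes of the names with a mean of at least 1 RPM that carry the seed of miR-322-5p (left) or miR-351-5p (right), each point 1 library and each line a group mean, sham in blue and I/R in red. miR-322-5p stands behind miR-16-5p and miR-195a-5p, and miR-351-5p far below miR-125b-5p and miR-125a-5p.

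Between sham and I/R hearts the log2 differences of the 8 members kept ran from -0.03 (SE 0.22) for miR-322-5p to 0.48 (SE 0.16) for miR-450b-5p, and whether the members differ from one another in this was not tested. Differences are on the log2(RPM + 1) scale, which understates the change of low names, and their SE is limma's. In limma, which tests log values, 0 of 409 names passed an adjusted p of 0.05 in either direction (0%), 30 had an unadjusted p under 0.05 (7.33%), and of the count models on recovered reads edgeR called 0 (0%) and DESeq2 called 2 (0.489%). The names called by DESeq2 hold 0 of the 8 members kept. With the replicate number as a block, limma called 4 names higher (0.978%), none of them a member. Groups lay apart on the higher side for 2 of the 8 members and for 46 of 409 names (11.2%), and on the lower side for 0 members and 16 names (3.91%). With median-ratio scaling the split over all names was 25 higher and 31 lower, and with TMM scaling 31 and 28, and the same 2 members lay apart under both. Without sham replicate 2, limma called 1 of the 409 names, no member, and groups lay apart on the higher side for 6 members and for 102 of 409 names (24.9%). The rule used this contrast, so nothing is read from the members' counts.

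miR-450b-5p, the member that prompted the choice of the cluster, is a 5p strand from the last hairpin. It was at 9.57, 11.5 and 8.27 RPM in sham replicates 1 to 3 and at 14.0, 15.2 and 12.7 RPM in I/R replicates 1 to 3. Every I/R heart lay above every sham heart, with replicate 2 highest in both groups. The means were 9.79 ± 1.64 and 14.0 ± 1.23 RPM (SD, n = 3 each), a log2 difference of 0.48 (SE 0.16). With a pseudocount of 10 RPM it was 0.28, and over the left-out libraries it was 0.38 to 0.59. Scaled by median ratios, by TMM or by totals without the 10 most abundant names, it was 0.389, 0.408 and 0.415. The summed heart muscle markers, mostly miR-1a-3p, were lower in I/R hearts without overlap, as given above. The liver marker was higher, with a gap smaller than the worth of 1 read. Their part in the difference of miR-450b-5p was not tested.

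miR-351-5p, with the miR-125 seed, was the other member whose groups lay apart. It was at 39.2, 41.7 and 36.5 RPM in sham replicates 1 to 3 and at 46.97, 46.2 and 51.4 RPM in I/R replicates 1 to 3. The gap between the highest sham and the lowest I/R heart was small beside the levels, and the 3 hearts of each group lay close together. The means were 39.2 ± 2.58 and 48.2 ± 2.82 RPM (SD, n = 3 each), a log2 difference of 0.29 (SE 0.12), which was 0.20 with median-ratio scaling.

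The abundant strands of the hairpins miR-322, miR-450a and miR-542 had groups that overlapped. miR-322-3p was at 233, 280.1 and 238 RPM in sham replicates 1 to 3 and at 283, 266 and 284 RPM in I/R replicates 1 to 3 (log2 difference 0.15, SE 0.11). Sham replicate 2 lay among the I/R hearts and the other sham hearts below them. miR-542-3p, which is known to target the survivin gene Birc5, was at 35.3, 45.1 and 37.0 RPM in sham and at 42.6, 43.8 and 48.3 RPM in I/R (0.20, SE 0.14). miR-450a-5p was at 151 RPM, 172 RPM and 143 RPM in sham and at 159 RPM, 174 RPM and 164 RPM in I/R (0.10, SE 0.12). Sham replicate 2 was within the range of the I/R hearts for both. Without sham replicate 2 the differences were 0.23, 0.30 and 0.17 for miR-322-3p, miR-542-3p and miR-450a-5p. With median-ratio scaling they were 0.05, 0.10 and 0.00, the last slightly below 0, and over left-out libraries they ran from 0.10 to 0.23, from 0.13 to 0.30 and from 0.04 to 0.17.

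The members that carry the miR-15/16 type of seed showed little difference between the group means. miR-322-5p was at 15.2, 26.2 and 14.0 RPM in sham replicates 1 to 3 and at 18.9, 16.4 and 16.8 RPM in I/R replicates 1 to 3 (log2 difference -0.03, SE 0.22). Here sham replicate 2 was above every other heart and the remaining sham hearts were below every I/R heart. Without sham replicate 2 the difference was 0.23, and without I/R replicate 2 it was 0.00. miR-503-5p was at 8.05, 7.01 and 5.93 RPM in sham and at 6.71, 7.58 and 7.37 RPM in I/R (0.05, SE 0.16), with the I/R hearts inside the range of the sham hearts. Its sign turned under each of the 3 other scalings, to -0.04 with median-ratio scaling, and to -0.05 without sham replicate 3.

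The scarcer strands of miR-450b and miR-542 had few reads. miR-450b-3p was at 3.59, 3.50 and 3.95 RPM in sham replicates 1 to 3 and at 2.68, 2.81 and 5.84 RPM in I/R replicates 1 to 3 (log2 difference -0.03, SE 0.25). I/R replicate 3 was the highest of the 6 hearts and the other I/R hearts the lowest. Without I/R replicate 3 the difference was -0.32, and without I/R replicate 1 it was 0.13. miR-542-5p did not pass the filter and was counted 0, 3 and 1 times in sham replicates 1 to 3 and 2, 4 and 2 times in I/R replicates 1 to 3, at or near the limit of 3 reads, so no fold is given.

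Beside all names kept, the members lay on both sides of the centre. The median log2 difference was 0.12 over the 8 members kept and 0.10 over the 409 names. Of the 8 members 6 were positive and 4 lay above the median of all names, where 287 of 409 names (70.2%) were positive. The 8 do not stand for all 9, since miR-542-5p was too scarce to be kept.

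**Figure D4:**
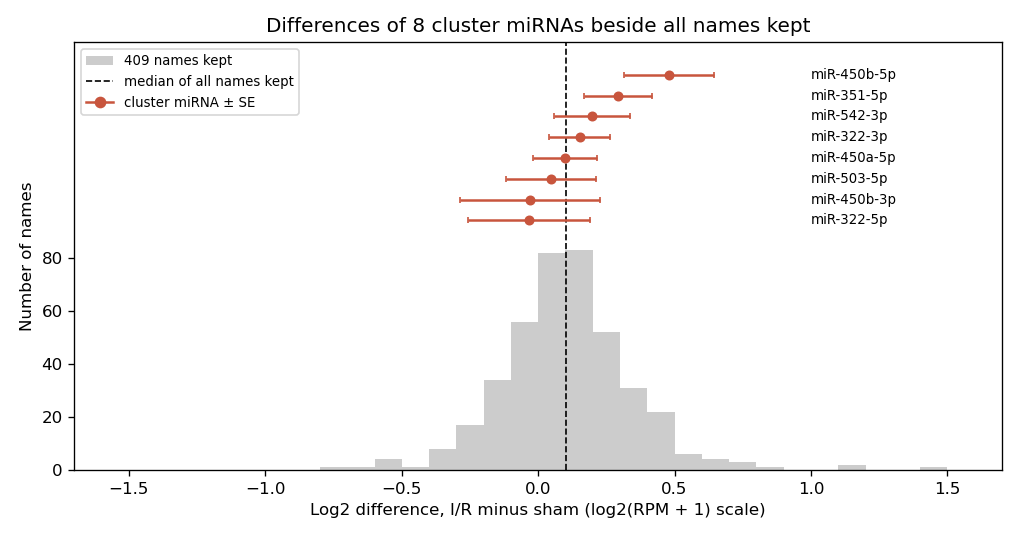
Log2 difference between I/R and sham means (log2(RPM + 1) scale) of the 8 members kept, drawn as points with SE above a histogram of all 409 names kept, whose median (0.10) is the dashed line; the height of the points has no meaning. miR-450b-5p (0.48) and miR-351-5p (0.29) lie farthest to the right, and miR-322-5p and miR-450b-3p lie at -0.03.

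The spread within groups, set against counting error, differed among the members. The chi-square of the reads within groups per degree of freedom, which is near 1 where counting error alone acts, was 13.04 for miR-322-3p, 11.1 for miR-322-5p, 7.48 for miR-450a-5p, 3.88 for miR-542-3p, 3.46 for miR-450b-3p, 1.601 for miR-450b-5p, 1.37 for miR-351-5p and 0.804 for miR-503-5p. Over the 409 names the median was 3.93. At an equal relative spread this chi-square grows with the number of reads, so it does not rank the members by relative spread. miR-322-3p, with 13282 reads over all libraries, had a coefficient of variation (SD over mean) of 10.3% in sham and 3.51% in I/R. For miR-503-5p it was 15.2% and 6.28%. The lowest chi-square values rest on 359 reads of miR-503-5p, 596 reads of miR-450b-5p and 2194 reads of miR-351-5p over all libraries.

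Over the 6 libraries, the profile most like that of the summed members was that of miR-664-5p (Pearson's r = 0.97, exact permutation p = 0.00417, Spearman's rho = 0.94, exact p = 0.0167), at a mean of 6.36 RPM. It was followed by miR-195a-5p, the seed mate of miR-322-5p (r = 0.97, exact permutation p = 0.00556, rho = 0.89, exact p = 0.0333), and miR-103-3p (r = 0.97, exact permutation p = 0.0167, rho = 0.77, exact p = 0.103). These were the highest of 401 names compared, and after Benjamini-Hochberg adjustment over these their exact p-values were 0.318, 0.318 and 0.477 for r and 0.495, 0.495 and 0.666 for rho, so 0 names passed. Without sham replicates 3 and 1, the libraries farthest from the median of the sum, r was 0.75 for miR-664-5p, 0.88 for miR-195a-5p and 0.54 for miR-103-3p, whose relation rested largely on those samples. The points share the scaling to a common library total, and with median-ratio scaling 2 of the 3 names, miR-195a-5p and miR-103-3p, remained among the 3 closest.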

How the data were processed

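Small RNA libraries of 6 mouse hearts were used, grouped by the treatment in the labels. The authors deposited signal values by mature miRNA, called FPKM in their file name. The submitters' processing notes list fastp 0.23.0, bcl2fastq 2.19.1.403 and mm10. No aligner, annotation or rule for reads with several loci is named in the sources used, and the labels' protocol describes poly(A) mRNA kits. All columns had the same total, and every value was a whole multiple of the smallest value above 0 of its column (100% of values, tolerance 0.01 reads), so whole reads were recovered and levels are given as RPM.

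Log2(RPM + 1) values were tested with limma 3.58.1 (R 4.3.3; mean-variance trend, two-sided, Benjamini-Hochberg adjustment), on names that averaged 1 RPM or more and had reads in 3 or more libraries. The design assumed normalized values, and the test was kept for the signal unit. edgeR 4.0.16 and DESeq2 1.42.0 on the recovered reads, pseudocounts, scalings, filters and left-out libraries were alternatives. The limma code was tested on simulated data. Intervals are 95% Wilson intervals on reads not collapsed to molecules.

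Sequences of 1679 of 2009 names, and of 343 of 409 kept names, matched RefSeq, so seed mates among the rest are not covered. Named were the members, names of at least 1 RPM with a member's seed, the other arms of the hairpins and the 3 names most like the sum. Members, lists and rules were chosen with earlier results of these data known. The correlation of deviations from group means was 0.14, 0.28 and 0.16 for sham and I/R libraries of equal replicate number and -0.19 to 0.07 for the others. Deviations from a group mean cancel within the group, so higher values for some pairs bring lower values for others. These correlations cannot establish that the numbers pair the libraries, and the labels do not state it. A fit with the number as a block is an alternative, given where it changes a count.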

Additional observations from a re-analysis of the deposited data

How the results depend on the processing

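The count of names that passed was 0 in limma and became 4 with the replicate block, 1 with no filter and 2 in DESeq2. Leaving out 1 library at a time gave 0 to 1 names, with 1 without sham replicate 2. The count of members that passed stayed at 0 under all alternatives run. Members with groups that lay apart numbered 2, on the higher side, beside 46 of 409 names higher (11.2%) and 16 lower (3.91%). Over left-out libraries they numbered 2 to 6, beside 14.4% to 24.9% of names higher and 4.89% to 7.58% lower. The 6 were seen without sham replicate 2, where 102 of 409 names (24.9%) also lay apart on the higher side. Without I/R replicate 3, 2 members lay higher and 1, miR-450b-3p, lower. The block changed no log2 difference of a member, since every replicate number has both groups, and no other call.

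The summed members, miR-322-3p, miR-351-5p, miR-542-3p and miR-450b-5p kept a positive difference under the 12 alternatives compared for it, and 4 of 8 members did not keep their sign. These alternatives were the pseudocounts, scalings, left-out libraries and the replicate block, which cannot change a difference here. The differences from edgeR and DESeq2 were not compared. miR-322-5p turned to 0.0036 without I/R replicate 2 and ran from -0.20 to 0.23 over left-out libraries. miR-503-5p turned to -0.040 with median-ratio scaling, -0.021 with TMM and -0.015 with top-10-free totals, and ran from -0.052 to 0.14 over left-out libraries. miR-450a-5p was at -0.00012 with median-ratio scaling. miR-450b-3p turned to 0.0028 with a pseudocount of 10 RPM and ran from -0.32 to 0.13 over left-out libraries. The cause of these turns was not tested.

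Divided by the number of hairpins, the seed shares of miR-322-5p and miR-351-5p were 8.47% and 1.26%, by construction, since miR-16-5p and miR-125b-5p have 2 hairpins each. Of the 3 names most like the sum, 0 remained among the 3 closest when miR-322-5p alone or Spearman's rho was used. By rho, miR-664-5p was tied with other names at 0.94, so its place depends on how ties were ordered and its loss is no loss of likeness. Depth limits miR-542-5p and the scarce arms, which had 12 reads or fewer over all libraries.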
